A study of Mus musculus with 19 samples.

Results

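The comparison concerned SV40-I CD8 T cells taken at days 8 to 9 from malignant liver lesions, sorted as high or as low for a trio of exhaustion-linked surface proteins, PD1, LAG3 and CD39. SV40-I cells carry a transgenic T cell receptor that recognises SV40 large T antigen, and the cells sorted here were also CD8+ and Thy1.1+. The members were chosen from the sample titles alone: 3 libraries titled PD1hi/LAG3hi/CD39hi (marker-high) and 3 titled PD1lo/LAG3lo/CD39lo (marker-low), 6 of the 19 libraries of the series. All came from C57BL/6 mice and all carried the same receptor transgene. A further 9 libraries from cells sorted out of mice served for reference, 3 each of CD44low naive SV40-I cells, of SV40-I cells (sorted on Thy1.1) from lesions at days 20 to 21, and of OT-I cells (sorted on Ly5.1) from lesions at days 20 to 21. The receptor of OT-I cells is directed at ovalbumin. The remaining 4 libraries were of cultured cells and were not used. The 6 libraries held 38830547 to 48274559 counts, within the range of the whole series (37006508 to 54195918).

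Some limits of the labels apply throughout. Headings of the deposited tables carry WT for the marker-high libraries and KO for the marker-low ones, but no label states a genotype or names a gene that was removed. A difference of sort, of genotype or of both cannot be told apart, and since counts were summed over each whole gene they cannot show a partial deletion in Tox or any other gene. The source field reads splenocytes for every sample, although titles and context labels give liver lesions, so the tissue is not certain. Nothing in the labels says that replicates were separate animals, and p-values then measure only the spread between these samples. In sorted bulk RNA, fewer cells of one kind and less RNA per cell cannot be told apart.

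T cells that meet their antigen without clearing it enter a state called exhaustion, in which inhibitory receptors such as PD1 stay on the surface and the output of cytokines falls. TOX, a DNA-binding protein of the HMG-box family, is known as a regulator of that state. In the days after first contact with antigen, CD8 T cells also divide, load granzymes for killing, and reduce genes of the naive state, such as those for lymph node homing.

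The cells carried the receptor segments of the line. Trbv29 stood at 1310 to 4250 CPM (counts scaled to the normalized library size) and Trav9-2 at 204 to 752 CPM in the 6 libraries, against no more than 2.28 and 0.917 CPM in OT-I libraries. Cd3e, of the T cell receptor complex, lay between 1750 and 3090 CPM. A further segment, Trav14n-3, stood at 20.4, 10.3 and 38.3 CPM in marker-low libraries 1 to 3 and at 2.36, 1.16 and 1.18 CPM in marker-high libraries 1 to 3. All library values below are given in that order, 1 to 3.

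A pair of libraries stood apart. Marker-high 3 correlated with marker-low libraries at a Pearson r of 0.918 to 0.935 and with SV40-I libraries of days 20 to 21 at 0.932 to 0.955. Marker-high 1 and 2 did so at 0.943 to 0.96 and 0.909 to 0.924. These values describe log2(CPM + 0.5) over the 16404 genes tested, which share all sources of depth and preparation within a library. Marker-high 3 also held less cell cycle RNA and less naive-type RNA than the other marker-high libraries, and its erythroid and platelet markers summed to 1397 CPM, against 121 and 132 CPM. Marker-low 2 held more RNA of myeloid cells, with macrophage markers at 8894 summed CPM against 2156 and 728 in marker-low 1 and 3, and neutrophil markers at 2478 against 413 and 152. Its T cell receptor complex genes summed to 13510 CPM, against 22590 and 20520. The share of counts from the mitochondrial genome was 0.116, 0.164 and 0.118% for marker-high and 0.214, 0.15 and 0.221% for marker-low libraries.

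Of 16404 genes, 78 were higher in marker-high cells (0.475%) and 118 were lower (0.719%), each called at an adjusted p under 0.05 with edgeR's quasi-likelihood test. At an unadjusted p under 0.05 stood 1846 genes, or 11.3% of those tested, against which the counts of list members at that level are to be read. DESeq2 called 334 genes higher and 403 lower, which is the background for its counts of list members. The rises were large, with a median log2 fold change of 2.91 and 50 genes past 4-fold, and the falls had a median of -2.05 with 60 genes past 4-fold. In all 196 called genes the 2 sets of 3 libraries did not overlap, which was true of 16.2% of all genes tested (8.72% with marker-high above and 7.51% below). Within marker-high cells, library 3 was the extreme one: it was the highest of all 6 in 63 of the 78 higher genes and the lowest in 64 of the 118 lower genes. Leaving out 1 library changed the counts of calls by more than 1.5 times in several cases. They fell to 13 higher and 25 lower without marker-low 3, to 37 and 55 without marker-low 1, and to 47 and 34 without marker-high 2. Without marker-high 1 or marker-high 3, 71 genes were called lower in either case. With both libraries that stood apart left out, 45 genes were called higher and 62 lower, of which 29 and 44 were among the calls with all libraries. A core of 31 genes, 10 higher and 21 lower, kept its call in each of the 6 fits that left out 1 library. The 10 higher ones were Calcb, Cxcr6, Gzmb, Gzma, Tox, Kndc1, Insc, St14, Sh3bgrl and the locus RP23-437A9.3, and among the 21 lower ones were Aqp3, Nfkbid, Il4ra, Arl5c, Bcl9l, Tnfrsf26, Hid1, Dgka, Dtx1, F2rl1, Tnfsf14 and Fas. Most of this core was not called when the fit held the 6 libraries alone and took no spread from the other groups. That fit called 1 gene higher, Calcb, and 3 lower, Nfkbid, RP23-284K1.6 and Slc16a5, while Tox, Cxcr6 and Gzmb each had an adjusted p of 0.108 in it.

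For single genes, leaving out both libraries gave log2 folds of 2.38 for Tox, 6.32 for Calcb, 3.04 for Cxcr6, 2.77 for Gzmb, -3.21 for Nfkbid, -2.13 for Il4ra and -3.83 for Aqp3, all still called (adjusted p of no more than 0.0392). The folds of Pdcd1 (2.12), Entpd1 (2.82), Gzma (4.20), Tigit (1.43), Nr4a1 (-1.94), Satb1 (-4.38) and Tnfsf14 (-2.29) kept their direction and were not called (0.051 to 0.135). This fit was chosen after the data were seen.

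**Figure D1:**
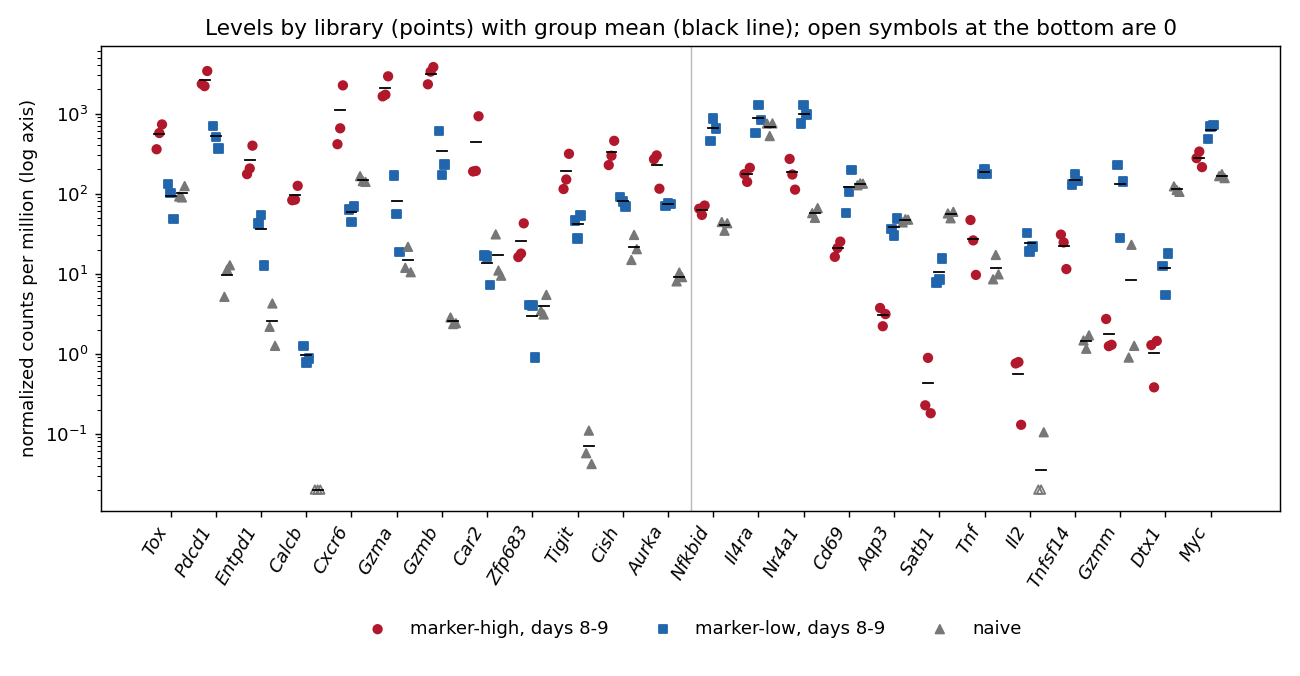
Normalized CPM (log axis) of 24 called genes in each library of marker-high cells (circles), marker-low cells (squares) and naive cells (triangles), with the mean of 3 libraries as a black line and values of 0 as open symbols at the bottom. The 12 genes left of the grey line are higher and the 12 to its right lower in marker-high cells, and in all 24 the marker-high and marker-low libraries do not overlap.

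The genes of the sort came first as a check of the labels. Pdcd1, which encodes PD1, stood at 2340, 2200 and 3400 CPM in marker-high and 695, 507 and 365 CPM in marker-low libraries. Entpd1, the gene of the ectonucleotidase CD39, stood at 175, 206 and 397 CPM against 42, 53.7 and 12.7. Both rose, by 2.34 ± 0.37 (SE, n = 3 in each group) and 2.84 ± 0.53 on the log2 scale (edgeR adjusted p = 0.0121 and 0.0227). Each SE here and below takes its spread from the fit of all 15 ex vivo libraries, not from these 6 alone. Lag3 stood at 47.7, 36.2 and 30.9 CPM against 20.3, 12.4 and 11.7. Its libraries did not overlap either, but the difference of 1.37 ± 0.43 was not called (adjusted p = 0.185). Marker-low cells were far from naive in these genes: naive libraries held Pdcd1 at 5.12 to 12.7 CPM and Entpd1 at 1.25 to 4.23 CPM.

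Tox (chromosome 4, 6686353 to 6991557, minus strand, GRCm38) stood at 358, 571 and 731 CPM in marker-high and 132, 101 and 48 CPM in marker-low libraries. The higher level was called, at 2.56 ± 0.36 (adjusted p = 0.00663), and the call held without any 1 library. Marker-low libraries 1 and 2 lay beside the naive ones (91.7, 89.5 and 124 CPM), and marker-low 3 below them. Of the other members of its family, Tox2 was near the limit of detection in marker-low cells (0.304, 0.817 and 0.061 CPM) and stood at 6.76, 12.5 and 2.19 CPM in marker-high cells (4.17 ± 1.02, adjusted p = 0.0884). Tox4, present in all cells, differed by -0.05 ± 0.22 with a sign that turned when marker-high 2 or marker-low 2 was left out, and Tox3 had no counts in the 6 libraries. Beside Tox on chromosome 4, 0 of 9 tested neighbours were called by edgeR (1 at an unadjusted p under 0.05, 1 higher by DESeq2), and the chromosome had 9 calls among 945 genes, or 0.952% against 1.19% over all genes.

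Other inhibitory receptors went both ways. Of 16 tested, 1 was called higher and 1 lower, with a median difference of 0.68 against 0 over all genes. That median was 0.31 without marker-high 3 and 1.38 without marker-low 2. Tigit, whose product binds the poliovirus receptor on other cells, rose by 2.19 ± 0.39 (114, 150 and 314 CPM against 45.9, 27.4 and 53.1, adjusted p = 0.0202). Cd5, which dampens T cell receptor signals, fell by 1.26 ± 0.22 (318, 243 and 180 CPM against 618, 472 and 685, adjusted p = 0.0171). Havcr2, the gene of TIM-3, was not called although its groups did not overlap, at 42.5, 94.3 and 50.8 CPM against 8.54, 17.4 and 2.34 (2.73 ± 1.07, adjusted p = 0.332). Ctla4 lay at 37 to 106 CPM in marker-high and 86.5 to 122 CPM in marker-low libraries, and those ranges overlapped. For Cd244 the spread within marker-low cells was wide, from 2.64 to 70.9 CPM, against 191 to 643 CPM in marker-high cells (adjusted p = 0.195). Several calls named above ended without 1 library: Pdcd1 without marker-low 3 (adjusted p = 0.0625), Entpd1 without marker-high 3, marker-low 1 or 3 (up to 0.073), Tigit without any 1 of the marker-low libraries (up to 0.0632), and Cd5 without marker-high 2, marker-low 1 or 3 (up to 0.0688).

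Genes of peptide hormones and their receptors held several large rises. Calcb (chromosome 7, 114718643 to 114723365, plus strand) is the gene of a calcitonin-related neuropeptide known from sensory neurons. It stood at 82.6, 83.9 and 125 CPM in marker-high libraries. In marker-low libraries it stood at 1.24, 0.774 and 0.874 CPM, and no naive library had a count. It had the smallest adjusted p of the comparison together with Aqp3 (6.66 ± 0.47, adjusted p = 0.000263) and was the only gene called higher when the fit held the 6 libraries alone. Glp1r, the receptor of glucagon-like peptide 1, stood at 8.6, 7.13 and 62 CPM in marker-high libraries and had no count in marker-low ones. This made it at least 1160-fold higher when 3 counts are assumed for the whole marker-low group (3031 against 0 counts, adjusted p = 0.0122). Of the Glp1r counts in marker-high cells 79.4% came from marker-high 3, and without that library the bound was 355-fold. Vipr2, a receptor of vasoactive intestinal peptide, was likewise at 0 in marker-low cells and stood at 1.21, 1.92 and 62.6 CPM in marker-high ones, so 95.1% of its counts came from marker-high 3 (at least 974-fold higher over the group, or 70.5-fold without that library, adjusted p = 0.0224 with all libraries). Without marker-high 3, Glp1r and Vipr2 kept their calls (adjusted p = 0.0105 and 0.00453). They lost them without marker-low 3 (Glp1r) or without any 1 of the marker-low libraries (Vipr2), with values up to 0.051 and 0.0765.

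Of the 9 tested genes of this list 3 were called higher, against 0.475% of all genes, and none lower, while 4 had a difference below 0. The list was chosen with earlier results of these data known, so this count is a description only. The list's median was 2.74, or 0.78 without marker-high 3 and 0.47 without the pair of libraries that stood apart. The receptor genes for Calcb's peptide were not called. Ramp1, a subunit of that peptide's receptor, stood at 34.1, 17 and 5.92 CPM in marker-high and 20.1, 57.2 and 26.6 CPM in marker-low libraries, ranges that overlapped. Calcrl, the receptor's other subunit, stayed at or under 1.98 CPM in every one of the 6. Calca, the neighbour of the same peptide family, stood at no more than 3.81 CPM (2.74 ± 1.29, adjusted p = 0.475).

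Insc, which encodes a protein that orients the spindle in dividing cells and lies 20328 bases from Calcb, moved the same way. It stood at 4.05, 7.39 and 12 CPM in marker-high libraries and had 1 count in all marker-low libraries, a ratio of 1050 (95% exact counting interval 188 to 41600, adjusted p = 0.00624). Kndc1, a guanine nucleotide exchange factor known from neurons, stood at 5.66, 10.5 and 47.7 CPM against 1 count in all marker-low libraries, a ratio of 2850 (512 to 113000, adjusted p = 0.00594). Marker-high 3 gave 74.3% of the Kndc1 counts in marker-high cells, and without it the ratio was 1090 (195 to 43200). For Calcb, Insc and Kndc1 the calls held without any 1 library. Adrb1, the beta-1 adrenergic receptor, was called at very low levels (0.226, 0.455 and 1.08 CPM against 3 counts in all marker-low libraries, a ratio of 26.3, interval 8.64 to 131, or 15.3 without marker-high 3), and that call ended in all fits that left out 1 library except the one without marker-high 1 (up to an adjusted p = 0.195). Amplified reads carry no molecular identifiers, so these intervals and floors cover counting error only.

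Killing and tissue-residency genes followed. Gzmb, the granzyme that starts the death of target cells, stood at 2320, 3340 and 3810 CPM in marker-high and 608, 170 and 232 CPM in marker-low libraries (3.23 ± 0.42, adjusted p = 0.00381). Gzma was higher by a wider margin, at 1640, 1720 and 2920 CPM against 168, 55.4 and 18.5 (4.70 ± 0.73, adjusted p = 0.0118). Gzmm went the other way, at 2.71, 1.24 and 1.29 CPM against 227, 28 and 142 (-6.24 ± 1.26, adjusted p = 0.0313). Opposite calls therefore stood within 1 enzyme family. The remaining cytotoxic genes were not called: the pore-forming perforin Prf1 differed by 0.85 ± 0.26 (adjusted p = 0.181), with marker-high 3 at 411 CPM beside marker-low values of 373 to 467, and Fasl, ligand of the death receptor Fas, by 1.11 ± 0.28 (adjusted p = 0.0815). Of 14 tested cytotoxic genes 2 were called higher and 1 lower (median 0.50, from 0.28 to 0.79 without single libraries, lowest without marker-low 2 and highest without marker-low 1). Calls of Gzma and Gzmb held without any 1 library. That of Gzmm held only without marker-low 2 and reached an adjusted p of 0.139 otherwise.

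Cxcr6, a chemokine receptor typical of resident T cells of the liver, stood at 414, 654 and 2250 CPM against 62.9, 43.9 and 68.5. The rise of 4.24 ± 0.53 (adjusted p = 0.00341) became 3.19 without marker-high 3, with an adjusted p = 0.000962. Marker-low cells lay below naive cells here (143 CPM as the middle of 3 naive libraries at 165, 143 and 140). Hic1, a transcriptional repressor linked to residency, stood at 9.4, 9.01 and 9.58 CPM against 0.558, 0.71 and 0.874, with little spread on either side (3.70 ± 0.59, adjusted p = 0.0122). Zfp683, which encodes the residency factor Hobit, rose by 3.10 ± 0.60 (16.1, 17.8 and 42.5 CPM against 4.03, 4.02 and 0.894, adjusted p = 0.0245). Cd69, an early activation antigen that also retains cells in tissue, was lower, at 16.2, 20.9 and 25.1 CPM against 57.4, 106 and 197 (-2.54 ± 0.51, adjusted p = 0.0313). Of 11 residency genes, 3 were thus called higher and 1 lower. The integrin gene Itgae, known for CD103, reached 20.5 CPM in marker-low 2 and no more than 2.05 CPM in the other 5 libraries. Itgal, a subunit of LFA-1, fell by 0.87 ± 0.18 (971, 848 and 812 CPM against 1540, 1960 and 1310, adjusted p = 0.0395). Without 1 library, calls ended for Hic1 (marker-low 1 or 3, up to 0.0528), Zfp683 (marker-high 3, marker-low 1 or 3, up to 0.0753), Cd69 (any marker-high library or marker-low 3, up to 0.133) and Itgal (each of the 6, up to 0.141).

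Several cytokine genes were lower in marker-high cells. Il2, the T cell growth factor, stood at 0.754, 0.784 and 0.129 CPM against 32, 18.8 and 21.8 (-5.44 ± 1.11, adjusted p = 0.0332). Tnf stood at 46.7, 26 and 9.63 CPM against 175, 202 and 175 (-2.74 ± 0.48, adjusted p = 0.0172), and the TNF family member Tnfsf14, known as LIGHT, at 30.7, 24.5 and 11.4 CPM against 129, 176 and 144 (-2.75 ± 0.42, adjusted p = 0.0103). Marker-low cells held these 3 genes above the naive level, where Il2 stood at no more than 0.104 CPM and Tnf at 8.48 to 17.1 CPM. Ifng, the gene of interferon gamma, also did not overlap, at 113, 130 and 17 CPM against 538, 322 and 326, yet was not called (-2.19 ± 0.55, adjusted p = 0.0843). Il10, an anti-inflammatory cytokine, pointed the other way (10.5, 16.5 and 1.36 CPM against 0.406, 0.559 and 0.549, adjusted p = 0.072). Of 14 cytokine genes 0 were called higher and 3 lower (8 at an unadjusted p under 0.05; 1 higher and 5 lower by DESeq2), with a median of -1.54 (-2.42 without marker-high 1) and 3 above 0. Of 8 chemokine genes edgeR called 0 (2 at an unadjusted p under 0.05, 1 lower by DESeq2): Ccl4 stood at 617, 771 and 441 CPM against 1740, 1020 and 1220 (-1.12 ± 0.29, adjusted p = 0.0879). The call of Tnfsf14 held without any 1 library, that of Tnf ended without marker-high 2 or marker-low 3 (up to 0.0754), and that of Il2 in each of the 6 fits that left out 1 library (up to 0.116).

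The promoters of 2 genes that rose and 2 that fell, all with products made on activation, are printed to show the sequence at which activation factors could be looked for. They run from 250 bases before to 50 bases after the RefSeq start of each gene in GRCm38.p6, 5′ to 3′ on the gene's strand. The Gzmb window lies wholly upstream of the gene as counted (56258838 to 56262260), so the 2 annotations place its start differently. Capitals mark AP-1 (TGANTCA), CRE (TGACGTCA), NFAT (GGAAA) and NF-kB (GGGANTTTC) matches on either strand.
Gzmb (chr14:56262285-56262584, minus strand): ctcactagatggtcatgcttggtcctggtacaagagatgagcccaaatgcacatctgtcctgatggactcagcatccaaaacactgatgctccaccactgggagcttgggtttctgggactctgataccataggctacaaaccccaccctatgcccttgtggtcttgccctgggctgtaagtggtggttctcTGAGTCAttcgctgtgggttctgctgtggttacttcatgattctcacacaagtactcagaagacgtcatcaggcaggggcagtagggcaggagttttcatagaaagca
Cxcr6 (chr9:123806227-123806526, plus strand): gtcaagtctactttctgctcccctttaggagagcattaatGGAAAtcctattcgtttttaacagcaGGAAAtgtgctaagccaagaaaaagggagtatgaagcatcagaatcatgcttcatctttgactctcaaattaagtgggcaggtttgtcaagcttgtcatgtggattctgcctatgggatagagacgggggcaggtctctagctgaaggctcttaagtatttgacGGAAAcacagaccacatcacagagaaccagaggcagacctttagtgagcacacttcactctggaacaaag
Il2 (chr3:37125905-37126204, minus strand): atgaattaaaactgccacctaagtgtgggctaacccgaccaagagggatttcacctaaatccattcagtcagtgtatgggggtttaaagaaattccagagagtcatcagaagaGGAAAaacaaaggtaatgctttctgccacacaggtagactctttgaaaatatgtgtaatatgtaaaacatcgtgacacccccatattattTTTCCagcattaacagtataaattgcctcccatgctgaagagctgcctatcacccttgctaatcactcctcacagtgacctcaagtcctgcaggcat
Tnf (chr17:35201958-35202257, minus strand): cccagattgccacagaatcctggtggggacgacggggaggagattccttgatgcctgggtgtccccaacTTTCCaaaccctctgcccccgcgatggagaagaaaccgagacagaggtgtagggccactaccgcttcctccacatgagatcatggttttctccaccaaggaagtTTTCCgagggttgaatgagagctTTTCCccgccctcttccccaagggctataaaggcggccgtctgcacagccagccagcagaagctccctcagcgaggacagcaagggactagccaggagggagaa
Gzmb held 1 AP-1 match, and no such match was found in the other 3 windows. Cxcr6 and Tnf held 3 NFAT matches each and Il2 held 2, and the core GGAAA is short enough that 59.5% of 9869 promoters of tested genes held it. Over all called genes with a promoter sequence, AP-1 matches were in 6.38% of 47 higher and 5.13% of 78 lower genes, against 5.25% of all. NFAT matches were in 66.0% and 64.1%, and NF-kB matches in 2.13% and 1.28%, against 0.993% of all. The element CHR (TTTGAA) of cell cycle promoters was in 21.3% of higher, 16.7% of lower and 12.1% of all promoters, and the KLF core CCACCC in 29.8%, 52.6% and 36.6%. CCAAT was in 36.2%, 35.9% and 38.8%, the TCF motif CTTTGAT in 2.13%, 1.28% and 2.55%, the E2F motif TTTCGCGC in 0, 1.28 and 0.608%, and CRE in 0, 2.56 and 3.2%. Matches of this kind are descriptions of letters, not of binding.

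Some genes that are switched on soon after receptor signals were lower in marker-high cells. Nfkbid, which encodes a nuclear inhibitor of NF-kB, stood at 64.7, 54.1 and 70.9 CPM against 456, 864 and 654 (-3.38 ± 0.32, adjusted p = 0.000497). Naive cells (34.3 to 44.1 CPM) lay nearer to the marker-high than to the marker-low level. Nr4a1, an orphan nuclear receptor induced by the T cell receptor, stood at 271, 173 and 112 CPM against 751, 1270 and 971 (-2.43 ± 0.46, adjusted p = 0.023). It was the only 1 of 8 NR4A and EGR genes called. Of the 8, 6 lay lower without overlap, as 7.51% of all genes did (6 at an unadjusted p under 0.05, 5 lower by DESeq2, median -2.36). Among them, Egr2 stood at 80.4, 27 and 11.8 CPM against 307, 477 and 326 (-3.22 ± 0.75, adjusted p = 0.0617) and Egr1 at 7.74, 9.23 and 7.73 against 30.5, 25.5 and 37.2 (-1.92 ± 0.47, adjusted p = 0.0803). Nr4a2 was 1 of 2 with a difference above 0, at 18, 11.7 and 14.2 CPM against 5.63, 7.53 and 7.5 (1.09 ± 0.77, adjusted p = 0.683).

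Of 15 AP-1, BATF, IRF4 and MAF genes edgeR called 0 (6 at an unadjusted p under 0.05, 3 lower by DESeq2), with a median of -0.78 and 2 above 0. Fosb, an AP-1 subunit, stood at 2.54, 1.47 and 0.773 CPM against 18.9, 18.2 and 30.2 (adjusted p = 0.0803), while Batf ranges overlapped. Receptor feedback genes split: Cish, an inhibitor of cytokine and T cell receptor signals, rose by 2.03 ± 0.31 (227, 297 and 456 CPM against 90.6, 79.9 and 68.7, adjusted p = 0.0103), and 2 of the 20, Cish and Nfkbid, were called. Il4ra, the chain that binds interleukin 4, fell by 2.35 ± 0.28 (175, 140 and 210 CPM against 570, 1280 and 826, adjusted p = 0.00259), the only call among 19 cytokine receptors. Of 12 costimulatory receptors only Tnfrsf25, a death-domain receptor, was called. It stood at 1.18, 0.835 and 0 CPM against 15.4, 10.6 and 15.6 (-4.36 ± 0.83, adjusted p = 0.0239). Tnfrsf9, known as 4-1BB, was high in both groups, at 1530, 1340 and 1770 CPM against 1200, 1100 and 1030 (adjusted p = 0.649). Among stress genes, which rise when tissue is dissociated, Gadd45b (-1.31 ± 0.28) and Ppp1r15a (-1.45 ± 0.30) fell, and 2 of 17 were called. Calls of Nfkbid and Il4ra held without any 1 library. Calls ended without 1 library for Nr4a1 (marker-high 2 or 3, marker-low 2 or 3, up to 0.0984), Cish (marker-low 3, 0.0574), Tnfrsf25 (marker-high 2, marker-low 1 or 3, up to 0.0935), Gadd45b (all but marker-high 3, up to 0.141) and Ppp1r15a (all but marker-high 1, up to 0.149).

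Naive and memory genes were lower as a group in the medians but rarely called. Satb1, a chromatin organiser of T cells, stood at 0.226, 0.885 and 0.18 CPM against 7.78, 8.47 and 15.5 (-4.61 ± 0.84, adjusted p = 0.0202) and was the only call of 20. Of those 20 genes, 14 lay lower without overlap, as 7.51% of all genes did. A difference above 0 was found in 1, and the median was -2.41 (13 at an unadjusted p under 0.05, 8 lower by DESeq2). Tcf7, which encodes the memory factor TCF-1, stood at 94.3, 71 and 1.57 CPM against 523, 577 and 676. Its difference of -3.41 ± 0.88 was not called (adjusted p = 0.0942), with marker-high 3 far below the other marker-high libraries. The same shape was seen in Lef1 (42, 48.7 and 3.04 CPM against 231, 271 and 359), in the exit receptor S1pr1 (29.6, 28.8 and 1.47 against 191, 202 and 190) and in the homing receptor Ccr7 (205, 112 and 16.8 against 630, 866 and 919). Il7r was at most 3.35 CPM in all 6 libraries. Summed over the list, marker-high libraries held 841, 714 and 245 CPM and marker-low ones 3331, 3662 and 4899 CPM, against 10310 to 12080 CPM in naive cells. Without marker-high 3 and marker-low 2 the list's median was -2.09 and 1 member was called lower. The call of Satb1 ended without marker-high 1, marker-high 3 or marker-low 3 (up to 0.07).

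Cell cycle genes pointed upward. Aurka, a kinase of the mitotic spindle, stood at 269, 300 and 115 CPM against 70, 76.4 and 73.8 (1.64 ± 0.30, adjusted p = 0.0202). Plk1, which drives entry into mitosis, stood at 461, 502 and 221 CPM against 171, 162 and 118 (1.39 ± 0.30, adjusted p = 0.045). These were the 2 calls among 28 listed genes, of which 25 had a difference above 0 (median 1.08, 15 at an unadjusted p under 0.05, 7 higher by DESeq2). Outside the list, and chosen after their values were seen, the mitotic genes Cdca2, Kif22, Gtse1 and Incenp rose by 1.83 ± 0.30, 1.20 ± 0.25, 1.5 ± 0.31 and 0.95 ± 0.21. So did the replication genes Lig1, a DNA ligase (1.18 ± 0.20, adjusted p = 0.0153), and Prim2, a primase subunit (1.20 ± 0.20, adjusted p = 0.0149). The list summed to 9366, 10520 and 5908 CPM in marker-high and 5165, 5219 and 5107 CPM in marker-low libraries, so marker-high 3 stood close to the marker-low level. Naive cells stood at 1478 to 1871 CPM. Without marker-high 3 the fold of Aurka was 1.95 (adjusted p = 0.00219) and that of Plk1 1.68 (0.0105), while the calls of both, and of Kif22, Gtse1 and Incenp, ended when any other library was left out (up to 0.204). Cdca2 lost its call without marker-high 2, marker-low 1 or 3, and Lig1 and Prim2 without marker-high 2 or marker-low 3 (up to 0.0686).

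Growth and metabolic genes held few calls. Myc, which drives growth and division in activated T cells, fell by 1.20 ± 0.25 (277, 335 and 214 CPM against 483, 686 and 724, adjusted p = 0.0366), the only call among 15 MYC-linked genes. That call held only without marker-low 1 (up to 0.154 otherwise). Of the 15 MYC-linked genes, 2 had a difference above 0 (13.3%, against 49.4% of all genes). Their median was -0.53, or -0.13 without marker-high 3 and marker-low 2. In 15 glycolysis genes edgeR called 0 (3 at an unadjusted p under 0.05, 1 lower by DESeq2), with a median of -0.04 that ran from -0.22 without marker-high 1 to 0.20 without marker-high 3. It also called 0 of 16 respiratory chain genes (0 at an unadjusted p under 0.05, 0 by DESeq2; median -0.07, from -0.21 without marker-low 2 to 0.04 without marker-low 1) and 0 of 14 BCL2 family genes (2 at an unadjusted p under 0.05, 0 by DESeq2; median 0.15, from -0.09 without marker-low 2 to 0.24 without marker-low 1). Of 18 interferon-stimulated genes 0 were called (3 at an unadjusted p under 0.05, 1 lower by DESeq2), although 15 had a difference above 0 (median 0.37). Without marker-high 3 alone that median was -0.35, with 3 above 0 and 1 called lower, so its sign rested on that library. In 9 receptors of the KLR family, known from NK cells, edgeR called 0 (0 at an unadjusted p under 0.05, 0 by DESeq2). Within the T cell receptor complex, Cd8a rose by 1.01 ± 0.17 (2600, 2530 and 3250 CPM against 1650, 1110 and 1390, adjusted p = 0.0159) while its partner Cd8b1 differed by 0.15 ± 0.21 (adjusted p = 0.889). The Cd8a call ended without marker-low 3 (0.0682).

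**Figure D2:**
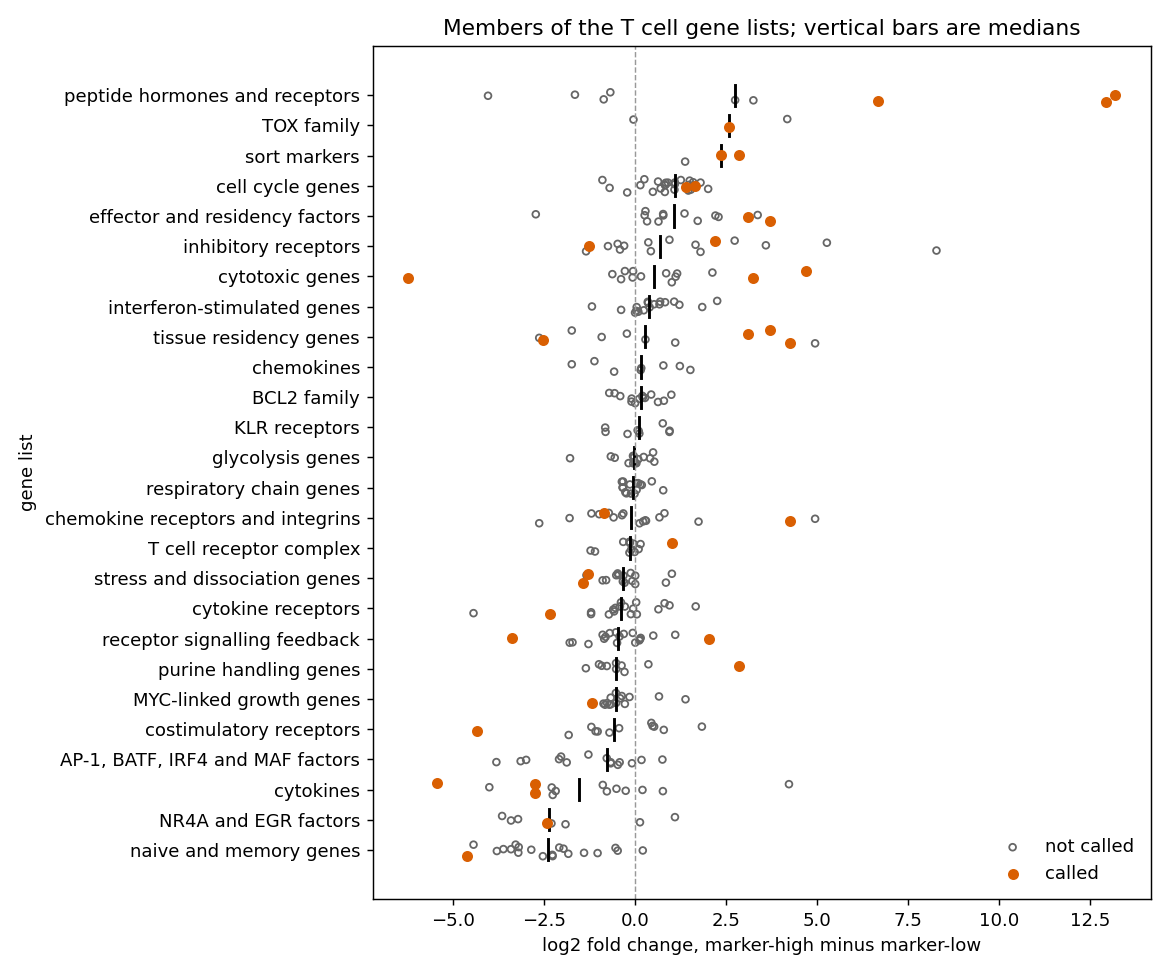
Log2 fold change (marker-high minus marker-low) of each tested member of the T cell gene lists, with called members filled and the median of each list as a vertical bar. Naive and memory genes have a median of -2.41 and cell cycle genes one of 1.08, while most single members are not called. The folds of Glp1r and Vipr2, at the right edge, depend on the prior count because marker-low libraries had no count.

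Other genes with large rises covered several functions. Car2, a carbonic anhydrase, stood at 189, 192 and 925 CPM against 16.8, 16.3 and 7.23 (5.02 ± 0.74, adjusted p = 0.00907). Epdr1, which encodes an ependymin-related lysosomal protein, stood at 43.7, 55.4 and 203 CPM against 0.912, 3.12 and 0.569 (6.03 ± 1.06, adjusted p = 0.0179), and Slc16a11, a monocarboxylate transporter family member, at 12.3, 10.2 and 56 against 1.9, 1.08 and 0.528 (4.49 ± 0.77, adjusted p = 0.0165). In each of these marker-high 3 was 3 or more times above the other libraries, as it also was for Srbd1 (65, 60.7 and 390 CPM against 7.76, 9.14 and 7.88, 4.38 ± 0.72) and for Cd200r4, a receptor related to the CD200 receptor (29.9, 55.2 and 405 against 5.6, 5.05 and 6.16, 4.87 ± 0.82). Ccdc80, a secreted matrix protein, was the extreme case, at 10, 15.9 and 1660 CPM against 0.101, 1.42 and 0.691. Its fold of 9.56 ± 2.00 (adjusted p = 0.0376) was 4.12 without marker-high 3, with an adjusted p = 0.0858. Without that library the folds of Car2, Cd200r4, Srbd1 and Slc16a11 were 3.82, 2.92, 2.93 and 3.27, all still called (up to 0.0325). Chn2, a Rac-directed GTPase activator, stood at 18.3, 17.7 and 41.3 CPM against 0.887, 2.28 and 0.589 (4.36 ± 0.92), and the loci RP23-298B23.1 and AC162528.2 rose by 5.83 ± 1.16 and 4.45 ± 0.85. All of these calls ended without marker-low 3. Those of Epdr1, Srbd1, Cd200r4, Ccdc80, Chn2 and AC162528.2 also ended without marker-low 1, those of Ccdc80 and RP23-298B23.1 without marker-low 2, and those of Ccdc80, Chn2 and both loci without marker-high 3. Chn2 further lost its call without marker-high 1 or 2, and RP23-298B23.1 without marker-high 2, with adjusted p-values up to 0.185.

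A further pair of rises, chosen after their values were seen, had a smaller spread. St14, a membrane serine protease, stood at 194, 200 and 238 CPM against 50.9, 63 and 23.1 (2.21 ± 0.33, adjusted p = 0.00908) and held without any 1 library. Sla2, an adaptor that reduces receptor signals, stood at 367, 361 and 564 CPM against 224, 156 and 189 (1.19 ± 0.23, adjusted p = 0.0239). The call of Sla2 ended without marker-high 3, marker-low 2 or 3 (up to 0.104).

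Among the falls, Aqp3, a water and glycerol channel of the T cell membrane, had little spread, at 3.72, 2.2 and 3.12 CPM against 36.1, 30.1 and 49.1 (-3.67 ± 0.32, adjusted p = 0.000263), and the naive libraries (43.6 to 47.8 CPM) lay within the marker-low range. Slc16a5, a further monocarboxylate transporter, stood at 0.0503, 0.0506 and 0.0258 CPM against 11.8, 16.8 and 16.5 (adjusted p = 0.0153), and at 537 to 734 CPM in naive cells. Nsg2, known from neuronal endosomes and from naive T cells, stood at 15.1, 6.53 and 0.438 CPM against 152, 166 and 192 (-4.53 ± 0.87, adjusted p = 0.0239). Naive libraries held 251 to 335 CPM of Nsg2, so for both genes the marker-low values lay between those of naive and marker-high libraries. Dtx1, a Notch-linked ubiquitin ligase, stood at 1.28, 0.379 and 1.44 CPM against 12.5, 5.38 and 17.8 (-3.52 ± 0.49, adjusted p = 0.00624). F2rl1, a protease-activated receptor, stood at 1.76, 3.31 and 8.6 CPM against 50.9, 39 and 62 (-3.47 ± 0.51, adjusted p = 0.00907). Fas, the death receptor, stood at 10.9, 7.24 and 6.36 CPM against 30.2, 25.2 and 52.8 (-2.14 ± 0.33, adjusted p = 0.0108), and Dgka, a kinase that removes diacylglycerol after receptor signals, at 220, 245 and 225 against 470, 589 and 563 (-1.23 ± 0.16, adjusted p = 0.00441). These last 4 calls and that of Aqp3 held without any 1 library. The call of Slc16a5 ended without any 1 marker-high library (up to 0.0671) and that of Nsg2 without marker-high 2, marker-low 1 or 3 (up to 0.115).

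The rule also named falls at low or uneven levels. Cd163l1, a scavenger receptor known from gamma-delta T cells, stood at 1.21, 0 and 0 CPM against 37, 43.6 and 52.6 (-6.77 ± 1.41, adjusted p = 0.0372), and the adjacent locus RP23-284K1.6 at 0.0503, 0 and 0.0515 against 28.2, 58.3 and 47.4 (-10.25 ± 1.00, adjusted p = 0.000497). Gpr15, a homing receptor of the large intestine, stood at 0.553, 0.81 and 0.412 CPM against 5.37, 12.4 and 19.6 (-4.39 ± 0.80, adjusted p = 0.0268). Tmevpg1, a long non-coding RNA beside Ifng, stood at 2.19, 2.23 and 0.0773 CPM against 61.9, 15.7 and 66.5 (adjusted p = 0.0469). Among these 4, the call of RP23-284K1.6 held without any 1 library. Those of the other 3 ended without 4 or 5 of the 6 libraries in turn (up to 0.144). The falls of Chil5, Lcn4, Tdrp and RP23-81K14.3 were -4.73 ± 0.78, -4.48 ± 0.79, -4.90 ± 0.90 and -4.02 ± 0.87, with adjusted p-values from 0.0149 to 0.0452, and all 4 calls ended without marker-low 3 (up to 0.153).

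Some of the called genes lay side by side in the genome, a pattern chosen after the values were seen. Within 100000 bases there were 16 pairs of called genes, of which 15 moved the same way. In 3 pairs the gene bodies overlapped, and since strand was not used in counting, reads from any shared exon bases could not be separated by strand. The other 13 pairs are not all separate. Hid1 was paired with both RP23-392H19.5 and Slc16a5, which overlap each other, and RP23-404A6.6, RP23-404A6.7 and Agfg1 were paired with one another. Of these 13 pairs, 12 moved the same way. They included Calcb and Insc on chromosome 7, Cxcr6 and Xcr1 on chromosome 9 (40554 bases apart), Cd163l1 and RP23-284K1.6 (16138 bases), Reck and Glipr2 on chromosome 4 (12594 bases) and GRp18 and Gpr183 on chromosome 14 (36769 bases). The pair that moved in opposite directions was Adgrg5, lower, and RP23-128L6.4, higher, on chromosome 8. Of the 196 called genes 26 (13.3%, overlapping genes included) lay within this distance of another called gene, and 925 of the genes tested (5.64%) did. Of the 78 higher and 118 lower genes, 20 and 35 overlapped another tested gene, and their values are uncertain to that extent. So are those of members of families with near-identical copies, such as Cd200r4 and H2-Q2, and of the pseudogene Bambi-ps1.

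RNA of other cells was present in every library. Macrophage markers summed to 6041, 4045 and 4776 CPM in marker-high and 2156, 8894 and 728 CPM in marker-low libraries, with all 11 genes tested, 0 called by edgeR (0 at an unadjusted p under 0.05, 0 by DESeq2). Lyz2, the lysozyme of myeloid cells, stood at 3740, 3030 and 3240 CPM against 1500, 6440 and 612. The markers of liver macrophages Clec4f and Vsig4 were at 0 in marker-low 3. Hepatocyte markers summed to 238, 203 and 309 CPM against 170, 638 and 79.0, and neutrophil markers to 535, 323 and 266 against 413, 2478 and 152. In neither list was a gene called (0 of 17 and 0 of 8 by edgeR, with 0 at an unadjusted p under 0.05 and 0 by DESeq2). B cell markers summed to 1623 to 2423 CPM against 1736 to 2110, NK cell markers to 341 to 566 against 128 to 557, and CD4 T cell markers to 28.1 to 55.7 against 16.1 to 63.2, with Cd4 itself at 0 in marker-low 3.

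Of all lists of other cells, 2 genes were called. Xcr1, a chemokine receptor of cross-presenting dendritic cells, stood at 11.6, 13 and 41 CPM against 1.77, 3.57 and 0.589 (3.47 ± 0.73, adjusted p = 0.0396), whereas the dendritic cell list as a whole summed to 4302, 1642 and 1855 against 1941, 5964 and 1345 CPM. Pecam1, an adhesion molecule of endothelium that T cells also carry, stood at 69.2, 71.4 and 25.3 CPM against 192, 201 and 166 (-1.75 ± 0.33, adjusted p = 0.0227). Both calls ended without some single libraries, Xcr1 without marker-high 2 or 3, marker-low 1 or 3 (up to 0.147) and Pecam1 without any 1 marker-low library (up to 0.066). The part of these cells in the results above was not tested. With genes of these lists, receptor segments and mitochondrial genes removed before scaling, 82 genes were called higher and 121 lower, including all 76 higher and 117 lower earlier calls that were still tested. With the summed hepatocyte markers as a covariate the counts were 78 and 97.

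The called genes were then followed across the other ex vivo groups. Of the 78 higher genes, naive cells lay nearer to the marker-low than to the marker-high mean in 71, OT-I cells of days 20 to 21 in 64, and SV40-I cells of days 20 to 21 in 11. Of the 118 lower genes these counts were 89, 90 and 17. All of these genes were chosen for a difference between marker-high and marker-low cells, so the separation of those means was fixed beforehand. The same counts over all genes tested were not computed. The late comparison, SV40-I against OT-I cells of days 20 to 21, shares no library with the one at days 8 to 9, so both were set side by side. Both came from the same fit, with a shared estimate of spread for each gene, so their calls are not independent. The shares over all genes given below were not matched for spread or level. In the late comparison 9.02% of all genes were called. There, 75 of the 78 higher genes had a fold above 0, which 47.5% of all genes did, and 57 were called higher (background 4.91%). Of the 118 lower genes, 107 had a fold below 0 and 84 were called lower (background 4.11%). The OT-I cells at days 20 to 21 differ from the SV40-I cells in receptor as well as in antigen, and the day 8 to 9 groups do not.

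**Figure D3:**
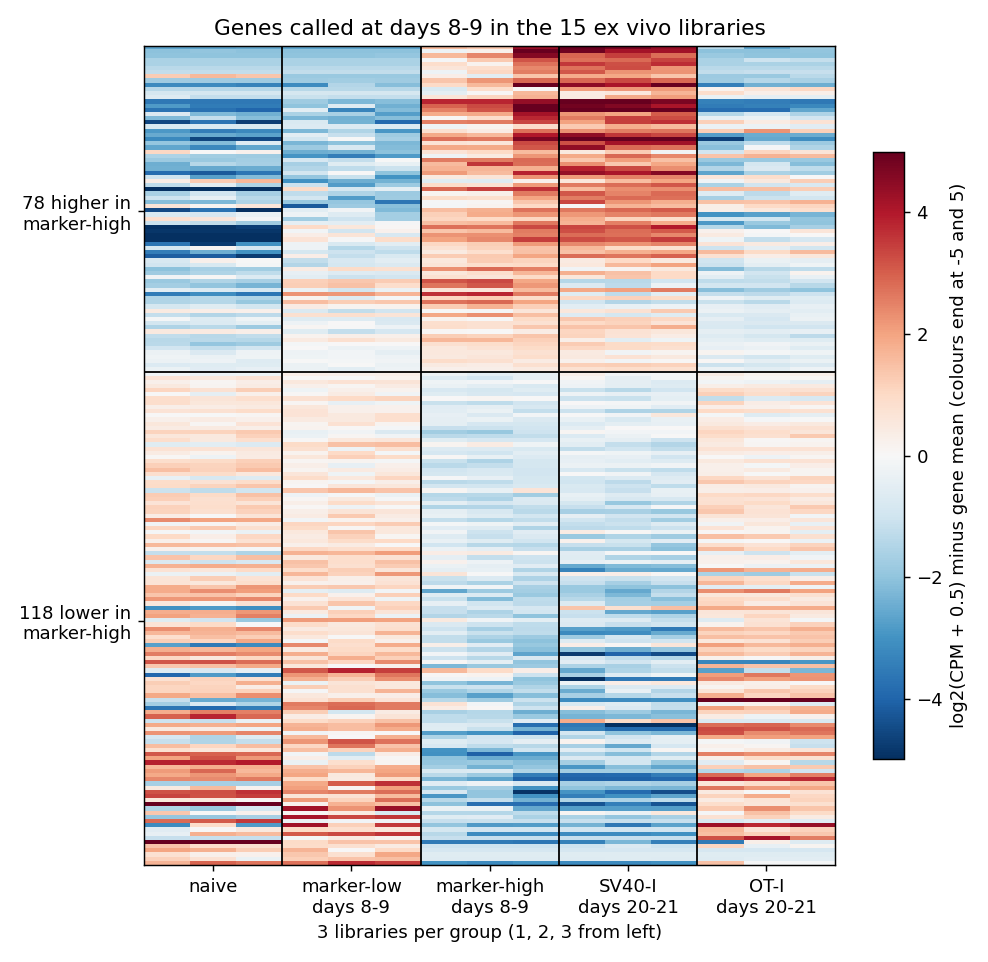
Each row is 1 of the 196 genes called at days 8 to 9, ordered by fold, and each column 1 of the 15 ex vivo libraries; colour is log2(CPM + 0.5) minus the gene's mean over the 15 libraries, with colours ending at -5 and 5. In these genes, chosen for a difference between marker-high and marker-low cells, marker-high libraries have most of the pattern of the SV40-I libraries of days 20 to 21. Marker-high 3 has it most of all, and marker-low libraries are closer to naive and OT-I cells in these genes. Over all genes tested, marker-low libraries correlated with marker-high ones at a Pearson r of 0.918 to 0.96. With naive and OT-I libraries they did so at 0.865 to 0.92 and 0.894 to 0.94.

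The difference between the early and the late comparison was tested for every gene, and 169 were called (1.03%), 66 with the early difference above the late one and 103 below it. Of the 196 genes called at days 8 to 9, 29 were among them. Tox differed by 2.56 at days 8 to 9 and 5.12 at days 20 to 21, and the difference of -2.56 ± 0.49 was called (adjusted p = 0.0269). Mean Tox levels were 93.7 CPM in marker-low and 553 CPM in marker-high libraries. In late OT-I and late SV40-I libraries they were 24.6 and 855 CPM, so the lower groups differed as well as the higher ones. The gap was called as well for Pdcd1 (2.34 early and 5.29 late, -2.95 ± 0.51, adjusted p = 0.0134). Its means were 522 and 2650 CPM early and 103 and 4040 CPM late, in the same order. A called gap was also found for Calcb (6.66 and 12.29, -5.63 ± 0.68, adjusted p = 0.00258). For the last, the OT-I libraries held at most 0.0706 CPM and the SV40-I libraries 154 to 261 CPM, so the late fold rests on a group near 0. Lag3, not called early, differed by 5.36 late (-3.99, adjusted p = 0.00748). PD1 and LAG3 were sort markers at days 8 to 9, while the late cells were sorted on Thy1.1 or Ly5.1. The gaps of Pdcd1 and Lag3 therefore set a sorted difference beside one not sorted on these proteins. They do not measure change with time alone. Cxcr6 and Gzmb went the other way, with larger differences early. Cxcr6 stood at 1310 to 1600 CPM in OT-I and 1810 to 3510 CPM in SV40-I libraries at days 20 to 21, a difference of 0.85, and the gap to the early value was 3.39 ± 0.68 (adjusted p = 0.0346). Gzmb stood at 731 to 918 CPM in OT-I and 935 to 1590 CPM in SV40-I libraries (0.70 late, gap 2.53 ± 0.55, adjusted p = 0.0483).

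Of the 118 genes lower at days 8 to 9, 11 had a larger late than early difference by this test, in each case with more RNA in late OT-I than in late SV40-I cells. Kcnj8, a potassium channel subunit, stood at 1.18, 0.784 and 1.57 CPM in marker-high and 6.79, 9.87 and 6.56 CPM in marker-low libraries, against 0, 0 and 0.0215 CPM in late SV40-I and 289, 173 and 216 CPM in late OT-I libraries (gap 11.77 ± 1.11, adjusted p = 0.00016). Tnfrsf25 stood at 99.8 to 117 CPM in late OT-I and at no more than 0.043 CPM in late SV40-I libraries (gap 8.29 ± 1.45, adjusted p = 0.0127). For Kcnj8 and Tnfrsf25 the late fold and the gap therefore rest on a group near 0. Reck, a membrane inhibitor of matrix proteases, had a gap of 6.14 ± 0.87 (adjusted p = 0.00361), and Galnt10, which starts O-linked glycans, one of 3.28 ± 0.54 (adjusted p = 0.0105). Sema4a, a semaphorin with roles in T cell activation, stood at 1320 to 1780 CPM in late OT-I and 38.3 to 67.5 CPM in late SV40-I libraries, beside 604 to 911 CPM in marker-low and 139 to 301 CPM in marker-high libraries (gap 3.10 ± 0.42, adjusted p = 0.00271). Early calls ended without 1 library for Kcnj8 (each of the 6, up to 0.139) and Reck (marker-high 2, marker-low 1 or 3, up to 0.0932). They also ended for Galnt10 (marker-high 2 or 3, marker-low 3, up to 0.0935) and Sema4a (any marker-low library, up to 0.0622).

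Nfkbid differed in the early comparison and hardly in the late one. Its level differed by -3.38 early and 0.11 late, where SV40-I and OT-I libraries held 61.9 to 111 and 47.3 to 90.9 CPM (gap -3.49 ± 0.43, adjusted p = 0.00176). A set of 3 genes was called in opposite directions at the 2 times. Itm2a, a membrane protein of activated T cells, was lower in marker-high cells by 1.66 ± 0.33 and higher in late SV40-I than OT-I cells by 1.70 (gap -3.36 ± 0.46, adjusted p = 0.00295). H2-Q2, a class Ib histocompatibility gene, had folds of -2.81 and 2.77 (gap -5.57 ± 0.76, adjusted p = 0.00271), and the pseudogene Bambi-ps1 folds of -2.41 and 3.09 (gap -5.50 ± 0.70, adjusted p = 0.00189). H2-Q2 stood at no more than 7.72 CPM in any of these libraries. The early calls of these 3 genes ended without some single libraries. These were marker-high 2 or 3, marker-low 1 or 3 for Itm2a (up to 0.129) and marker-high 1 or 2, marker-low 1 or 3 for H2-Q2 (up to 0.116). For Bambi-ps1 they were marker-high 2, marker-low 1 or 3 (up to 0.129). The gaps of Kcnj8, Tnfrsf25, Reck, Galnt10, Sema4a, Calcb, Nfkbid, Itm2a, H2-Q2 and Bambi-ps1 were called in every alternative fit, with adjusted p-values of no more than 0.0486. These genes were named for their small p in this test. No such values are given for the gaps of Tox, Pdcd1, Lag3, Cxcr6 and Gzmb.

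**Figure D4:**
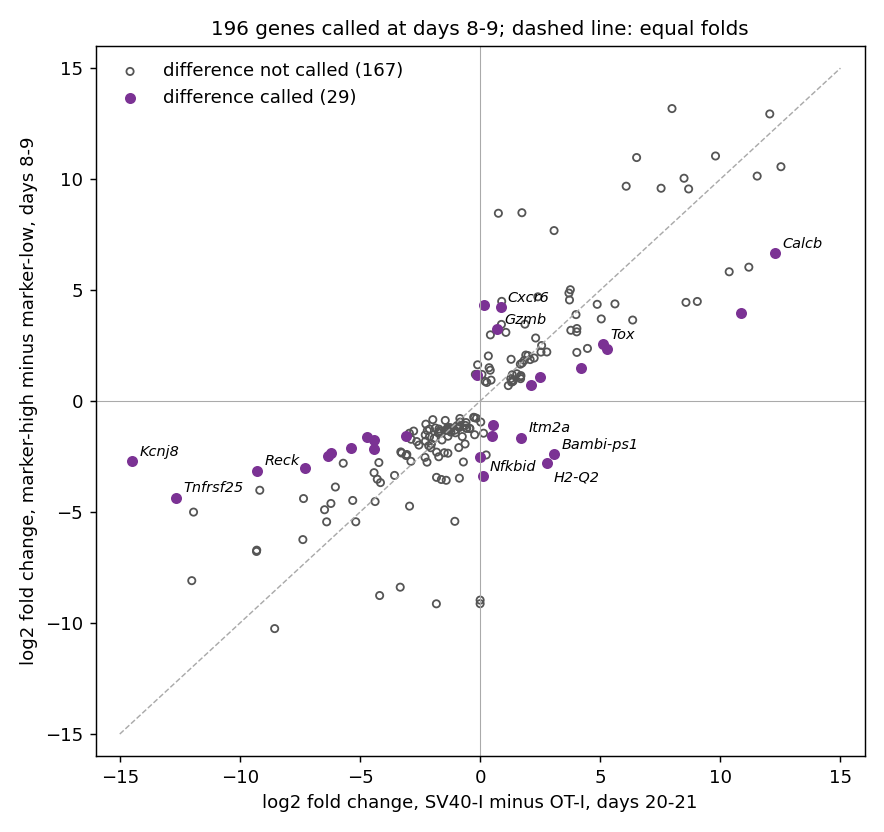
Log2 fold change at days 8 to 9 (marker-high minus marker-low, vertical axis) against that at days 20 to 21 (SV40-I minus OT-I, horizontal axis) for the 196 genes called at days 8 to 9. Filled points are the 29 genes whose early and late folds differed by the test; Nfkbid lies near 0 on the horizontal axis, Kcnj8 far to the left, and Itm2a, H2-Q2 and Bambi-ps1 at the lower right.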

How the data were processed

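RNA of sorted CD8 T cells was amplified with SMART-seq V4 and sequenced in pairs, per the labels' protocols. The deposited values are raw counts per gene from paired reads, made by the authors with featureCounts 1.6.2 over gene names of GENCODE M17 (GRCm38) with no strand option, per the file headers. STAR, FastQC and DESeq2 are named in the submitters' processing notes without a version.

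The 15 ex vivo libraries were fitted together in edgeR 4.0.16 (R 4.3.3; TMM scaling, filterByExpr, robust quasi-likelihood), with 1 coefficient per group and no covariate. Of 53656 genes 16404 were kept, p-values were adjusted over them by Benjamini-Hochberg, and the threshold for a call was 0.05. Standard errors were derived from the fold change and its F statistic. CPM used the TMM-scaled total of tested genes. A group at 0 was given a floor of 3 counts, and ratios from 1 to 3 counts a 95% exact interval. DESeq2 1.42.0, other filters and scalings, a replicate block, an added covariate and fits without single libraries were alternatives.

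Named genes were Tox, Pdcd1, Lag3 and Entpd1, called members of the lists (and of the 2 members with the smallest p per list, those that bear on a result), the 15 largest rises and falls with at least 10 CPM and no overlap, and 5 early against late differences each way; others are said to be chosen after their values were seen. The genes most like Tox are left out because the libraries fall into separate groups. The members and the gene lists were chosen with earlier results of these data known.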

Additional observations from a re-analysis of the deposited data

How the results depend on the processing

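None of the 196 called genes reversed in an alternative that tested it. Among values recomputed for the genes that the naming rule chose, 1126 kept direction and side of the threshold, 288 kept direction and lost the call, and 27 gained one. Of genes named but not called, Tox4, Batf, Cd3e, Cd8b1, Clec4f, Itgae, Lyz2, Ramp1 and Trav9-2 changed sign when some libraries were left out. DESeq2 called more genes, 334 higher and 403 lower, and 352 and 413 in the early against late test. Its calls at days 8 to 9 included 75 of the 78 and all 118 calls of edgeR. For the remaining rises, Vipr2, Srbd1 and Ccdc80, DESeq2 gave no adjusted p. A fit of the 6 libraries alone called 1 gene higher, Calcb, and 3 lower, Nfkbid, RP23-284K1.6 and Slc16a5. Other scaling, filters, removal of other-cell genes and the hepatocyte covariate kept each count within 1.5 times. Leaving out 1 library at a time gave 13 to 73 higher and 25 to 86 lower calls, both lowest without marker-low 3, and 25 to 131 and 46 to 174 in the early against late test, lowest without marker-high 2 and highest without marker-high 3. Leaving out marker-high 3 and marker-low 2 together, chosen after seeing the data, gave 45 and 62 calls, and 121 and 157 in the early against late test. The cause of these changes was not tested. A count of 3 over a library corresponds to 0.061 to 0.0773 CPM, below which levels were not resolved.

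The replicate numbers are shared between the groups, but nothing says that they pair samples, and same-numbered libraries deviated together at r = 0.218, -0.451 and -0.154 over 6838 genes. With the replicate block, 56 genes were called higher and 72 lower, and 43 and 81 in the early against late test.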
